A study of Mus musculus with 8 samples.

Results

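Integrin subunit genes were examined in the back skin epithelium of mice at E15.5, the stage of early hair follicle buds, with Itgb8, which encodes the integrin β8 subunit, at the centre. The 10 genes were taken by symbol from the 26165 genes of the array, and each symbol had 1 row. Itgb8 was chosen because its level fell in Foxi3 null epithelium, so its values are given as a description with no test. The other 9 genes, Itgav, Itgb5, Itgb6, Itgb1, Itgb4, Itga2, Itga3, Itga6 and Itga9, were added as subunits of the receptors of epidermal keratinocytes.

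The study compared 4 Foxi3-/- embryos, which carry a total null allele of the forkhead transcription factor gene Foxi3, with 4 Foxi3+/+ embryos, all of C57/Bl6 background and drawn as littermates from 4 litters. Null embryos were recognised by their missing jaw and by genotyping, and wild-type embryos by genotyping. Epithelium was lifted from the dermis with dispase, and each array holds RNA of 1 embryo on an Affymetrix mouse exon array. The litter of each embryo is not stated, so that p-values treat the embryos as independent.

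An integrin is a receptor of 1 α and 1 β subunit that crosses the cell membrane and holds cells to the extracellular matrix. The αv subunit pairs with β5, β6 or β8, among other β subunits. The αvβ6 and αvβ8 receptors bind latent TGF-β and release the active growth factor. In the basal layer of the epidermis, α6β4 anchors hemidesmosomes to laminin, while α2β1, α3β1 and α9β1 bind collagens, laminins and matrix proteins such as tenascin.

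Values are log2 intensities from RMA, in which 1 unit is a doubling, and differences are Foxi3 null minus wild type. The arrays carried epithelial RNA throughout, since the basal keratin gene Krt5 lay between 12.02 and 12.07 and Krt14 between 11.48 and 11.72. Foxi3 itself had 8.62, 8.43, 8.45 and 8.19 in the null samples and 8.96, 9.07, 9.20 and 8.55 in the wild-type samples, so that the groups overlapped at null 1 and wild type 4. Whether its probes lie in the deleted part is not stated. Foxi3 null 2 stood apart, with a mean of 10 dermal fibroblast genes of 8.50 against 6.56 to 6.92 in the other 7 samples. The 10 genes differed in this. Lum was 8.81 in null 2 against 3.31 to 5.02 in the others, while Dcn lay between 11.30 and 11.45 in all samples. Vim was also high in every sample, between 10.58 and 11.20. The samples numbered 4 stood apart in 11 dissociation stress genes, whose mean was 8.76 in the null and 9.72 in the wild-type one, and 7.25 to 7.70 in the remaining 6. By 4 Y-linked genes, Foxi3 null 3 and wild type 3 and 4 were male, with means of 6.97 to 7.14 against 2.33 to 2.46.

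The promoter windows of Itgb8 and of Itgav, the only α partner of β8, are shown because these are the 2 genes of the set whose null and wild-type samples did not overlap. Over all genes, 1.07% did not overlap with the null lower and 0.871% with the null higher, and Itgb8 was chosen for its fall. The windows are RefSeq sequences of build GRCm38.p6, read along the gene from 250 bases before the transcription start, and capitals mark the 50 bases from the start onward. The Itgb8 window is chr12:119238227-119238526 on the minus strand, and the Itgav window is chr2:83724147-83724446 on the plus strand.
Itgb8: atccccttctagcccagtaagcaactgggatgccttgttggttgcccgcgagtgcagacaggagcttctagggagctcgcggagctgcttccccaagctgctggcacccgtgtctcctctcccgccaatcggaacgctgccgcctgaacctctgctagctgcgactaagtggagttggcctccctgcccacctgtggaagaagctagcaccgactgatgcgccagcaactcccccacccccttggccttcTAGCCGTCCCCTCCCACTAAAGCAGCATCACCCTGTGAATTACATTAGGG
Itgav: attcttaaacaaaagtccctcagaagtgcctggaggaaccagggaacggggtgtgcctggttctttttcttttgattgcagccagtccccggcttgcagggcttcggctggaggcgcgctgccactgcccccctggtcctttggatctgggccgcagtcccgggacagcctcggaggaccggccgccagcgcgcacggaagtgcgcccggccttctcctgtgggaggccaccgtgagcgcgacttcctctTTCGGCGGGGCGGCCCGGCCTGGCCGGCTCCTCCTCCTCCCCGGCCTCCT

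The Itgb8 window had a GC content of 60.7% with 13 CpG dinucleotides, and the Itgav window 67.3% with 24. Windows were found for 8 of the 10 genes, with 10 windows in all, and none was found for Itgb4 or Itga6. The forkhead core letters TGTTTAC and TGTTTGC, searched on both strands, were in 0 of these 10 windows, and in 8.48% of the 32851 windows of all genes. That count describes these letters in these windows alone.

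Itgb8 transcript was lower in all 4 Foxi3 null samples. Its level was 4.55, 4.26, 4.49 and 4.18 in Foxi3 null 1 to 4 and 5.50, 5.35, 5.22 and 5.22 in wild type 1 to 4. The groups did not overlap, as in 1.07% of all genes on the lower side, and the lowest wild-type samples were 3 and 4. Null samples averaged 4.37 ± 0.18 and wild-type samples 5.32 ± 0.13 (SD, n = 4 each), a difference of −0.95 (SE 0.11), so that the null intensity was 51.7% of the wild-type intensity. These values chose the gene and carry no test. Itgb8 was a gene of modest signal, its mean over all samples lying at percentile 43.8 of all genes. RMA compresses differences of such genes. The null mean lay below the table median of 5.22. Detection calls were not used, so the null values of Itgb8 cannot be told from background. In bulk samples, fewer cells of a type that express a gene and less RNA per cell cannot be told apart.

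Because the Itgb8 groups did not overlap, any subset of these samples had to give a difference below 0. Only the size of that difference is described here. Among embryos without Y-linked signal, 3 null and 2 wild type, the difference was −1.10, and among the 1 null and 2 wild-type embryos with it −0.73. It was −0.92 without both samples numbered 4, and leaving out any 1 sample gave −1.01 to −0.89.

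**Figure D1:**
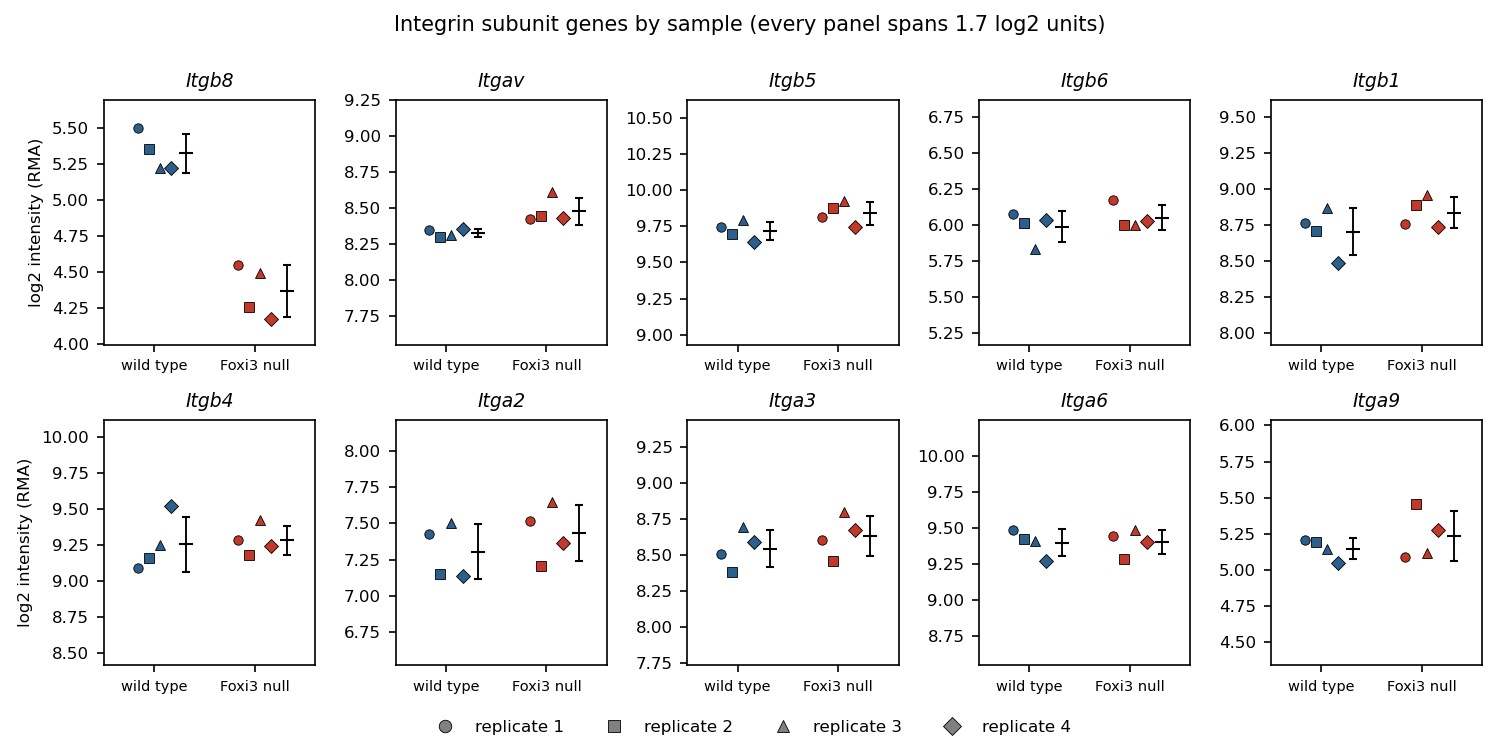
Log2 intensity of the 10 integrin subunit genes in 4 wild-type (blue) and 4 Foxi3 null (red) samples, with 1 symbol per replicate number and, beside each group, its mean with a bar of 1 SD. The null samples of Itgb8 sit between 4.18 and 4.55, below the wild-type samples at 5.22 to 5.50, while those of Itgav sit slightly above the wild-type samples and the groups of the other 8 genes overlap.

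None of the other 9 subunit genes passed the test over all genes, in which 3 of 26165 genes, 0.0115%, were called (limma, Benjamini-Hochberg adjusted p under 0.05). Each had limma adjusted p = 1.00, and 1 of the 9, Itgav, had an unadjusted p under 0.05, against 973 of all genes, or 3.72%. All 9 had mean differences above 0, between 0.0048 and 0.15, with a median of 0.09. Over all genes 46.0% of differences were above 0 and the median was −0.0083. The members share samples and pair with each other, so they are not independent of one another.

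Among the αv receptors, the partner subunit did not follow Itgb8. Itgav, which encodes αv, had 8.42, 8.44, 8.61 and 8.43 in null samples, against 8.34, 8.30, 8.32 and 8.35 in wild-type samples. All 4 null samples were above all wild-type samples, as in 0.871% of all genes, but by a small margin apart from null 3. The difference was 0.15 (SE 0.06, 95% interval 0.0018 to 0.29, limma adjusted p = 1.00), or 111% of the wild-type intensity.

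Itgb5, which encodes the β5 subunit of the vitronectin receptor αvβ5, had 9.82, 9.88, 9.93 and 9.74 in null samples, against 9.74, 9.70, 9.79 and 9.64 in wild-type samples. Only null 4 fell inside the wild-type range, so the groups overlapped through that sample. Its difference was 0.12 (SE 0.07, 95% interval −0.027 to 0.27). Itgb6, which encodes the β6 subunit of the TGF-β-activating receptor αvβ6, ran from 6.001 to 6.18 in null and from 5.84 to 6.08 in wild-type samples. Its difference was 0.06 (SE 0.08, 95% interval −0.11 to 0.23). It was 0.011 without wild type 3 and 0.021 without Foxi3 null 1.

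**Figure D2:**
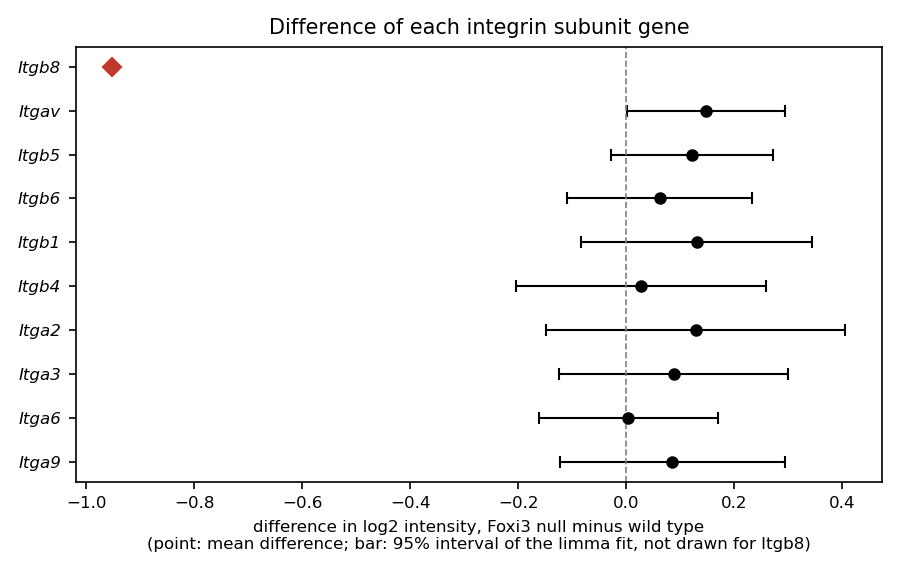
Difference in mean log2 intensity, Foxi3 null minus wild type, for each of the 10 genes (n = 4 per group). Points are mean differences and bars are 95% intervals of the limma fit, which are not drawn for Itgb8 since it was chosen on this difference. Itgb8 stands at −0.95 and the other 9 genes between 0.0048 and 0.15, with intervals that reach at most 0.41.

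Itgb1, which encodes the β1 subunit shared by many matrix receptors, had 8.76, 8.89, 8.96 and 8.74 in null samples, against 8.76, 8.71, 8.86 and 8.48 in wild-type samples. The groups overlapped, with the highest value in null 3 and the lowest in wild type 4. The difference was 0.13 (SE 0.09, 95% interval −0.083 to 0.34). Its α partners overlapped between the groups as well. Itga2, the collagen receptor subunit gene, ran from 7.21 to 7.65 in null and from 7.14 to 7.51 in wild-type samples, a difference of 0.13 (SE 0.12). Itga3, which encodes the α3 subunit of the laminin receptor α3β1, ran from 8.46 to 8.80 in null and from 8.39 to 8.69 in wild-type samples, a difference of 0.09 (SE 0.09). When 1 sample was left out, the differences of these 3 genes stayed above 0, from 0.058 to 0.18 for Itgb1, 0.057 to 0.21 for Itga2 and 0.034 to 0.15 for Itga3, the last 2 being lowest without Foxi3 null 3 and Itgb1 without wild type 4.

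Itga9, which encodes the subunit that binds tenascin C among other ligands, had 5.08, 5.46, 5.12 and 5.27 in null samples, against 5.204, 5.19, 5.15 and 5.05 in wild-type samples. The highest value was in null 2, the sample with the high fibroblast genes, and the groups overlapped. The difference of 0.09 (SE 0.09) was 0.01 without null 2.

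The hemidesmosome pair differed least. Itga6 ran from 9.28 to 9.48 in null and from 9.27 to 9.49 in wild-type samples, a difference of 0.0048 (SE 0.07, 95% interval −0.16 to 0.17). Its sign turned in 7 of 20 alternatives, among them the fits with array weights and with sex as a covariate. Itgb4 had 9.28, 9.19, 9.42 and 9.25 in null samples, against 9.09, 9.16, 9.25 and 9.52 in wild-type samples, a difference of 0.028 (SE 0.10, 95% interval −0.20 to 0.26). Wild type 4, the sample with the highest stress mean, was the highest for Itgb4, and without it the difference was 0.12, while without Foxi3 null 3, wild type 1 or wild type 2 the sign turned.

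Apart from the difference between groups, the subunits varied together only in part. After subtracting each group's mean, 27 of the 45 pairs of members had a Pearson correlation above 0 over the 8 samples, with a median of 0.23. These correlations are descriptions, and samples share handling and array normalisation. Itgb5 and Itgb1 varied most alike, with r = 0.91 (Spearman 0.95, n = 8), and r = 0.97 without the 2 samples farthest from the median of Itgb5. Both were highest in number 3 and lowest in number 4 within each group. Itga2 and Itga6 followed with r = 0.77 (0.60 without the 2 samples farthest in Itga2). Itgb4 and Itga9 lay at the other end with r = −0.67 (Spearman −0.88). Itgb4 and its only partner Itga6 had r = −0.35 (−0.10 without the 2 samples farthest in Itgb4). Over all 8 samples Itgb8 had its highest values with Itga6 (r = 0.69, and 0.58 without the 2 farthest samples) and Itgb6 (0.59, and 0.083 without them), and r = 0.31 with Itgav (0.75 without them). The order of the pairs with Itgb8 thus rests on 2 samples, and no pair with Itgb8 is singled out from it.

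**Figure D3:**
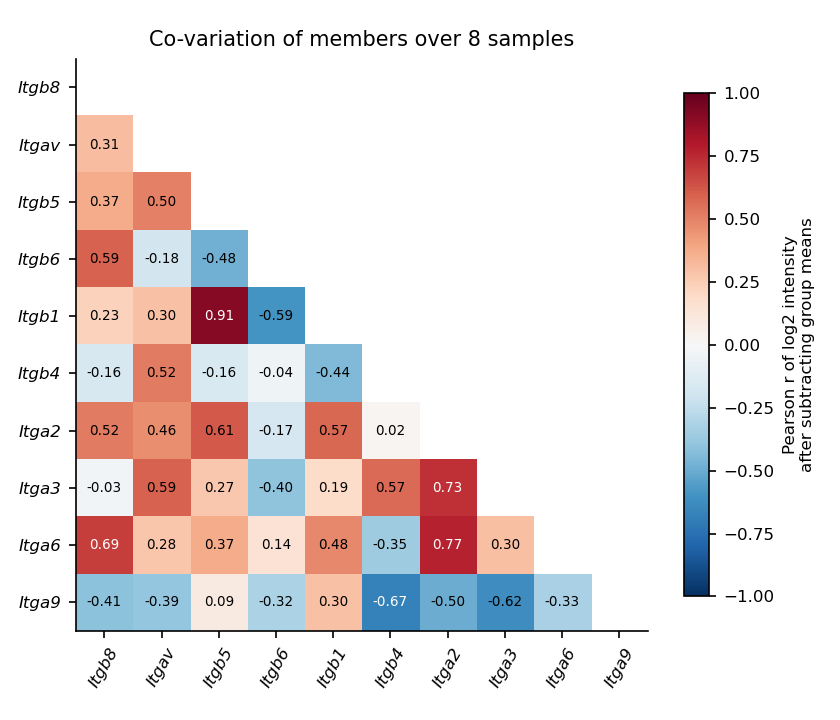
Pearson correlation of log2 intensity between each pair of the 10 genes over 8 samples, after each group's mean was subtracted (colour and number). Itgb5 and Itgb1 stand out at 0.91, and the row of Itga9 is mostly below 0.

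The genes whose levels over the 8 samples were most like those of Itgb8 were taken from 11110 genes with a symbol and a mean at or above the table median. They were Pthlh (r = 0.96), Prss35 (0.96), Has3 (0.95), Tmtc1 (0.95) and Ptk2b (0.93). These correlations rest on the 2 genotypes standing apart. After subtracting each group's mean they were 0.25 for Pthlh, 0.34 for Prss35, 0.59 for Has3, 0.51 for Tmtc1 and 0.53 for Ptk2b. Tmtc1 had a mean of 5.38 in null and 5.58 in wild-type samples, and Ptk2b, a kinase of the focal adhesion kinase family, 6.01 and 6.19.

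Of the 16 remaining integrin subunit genes, which include those of leukocytes, platelets and mesenchymal cells, 0 were called in either direction by limma over all genes. Of all genes 0.0115% were called. None of the 16 had an unadjusted p under 0.05, against 3.72% of all genes. The median difference was −0.0055, against −0.0083 over all genes. Of the 16, 7 lay above 0 and 9 below, and 46.0% of all genes lay above 0. These counts lie near the shares of all genes. Itga5, the fibronectin receptor subunit gene, was at 0.21 (SE 0.11), with null values of 6.83, 7.23, 7.08 and 6.84 against 6.65 to 6.91, and it was at 0.13 without null 2. Itga4 was at 0.19 (SE 0.14), ranging from 0.10 without null 3 to 0.31 without null 4, and Itga10 at −0.10 (SE 0.08), ranging from −0.17 without null 4 to −0.070 without null 1, and the groups overlapped in each.

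Subunits of blood cells were not called in either direction, and 0.0115% of all genes were. Of the 16 subunit genes, 5 had a mean at or above the table median. Without detection calls, the dim ones cannot be told from background. Itgb2, the shared β subunit of leukocyte integrins, ran from 3.84 to 4.14 in null and from 3.93 to 4.09 in wild-type samples. Its mean lay at percentile 28.6 of all genes. The mean of 7 leukocyte genes lay between 4.35 and 4.59 over all samples. Itga8, a mesenchymal subunit singled out after its values were seen, was 4.81 in Foxi3 null 2 and 3.45 to 3.74 in the other 7 samples.

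Among 21 matrix ligands of integrins, 0 were called in either direction by limma over all genes (0.0115% of all genes were). Of the 21, 2 had an unadjusted p under 0.05 (3.72% of all genes did). Above 0 lay 13 (46.0% of all genes did), and the median difference was 0.07. That median ranged from 0.00097 without Foxi3 null 1 to 0.15 without wild type 4. The member with the lowest p was Frem1, which encodes a protein of the Fraser complex that lies in the basement membrane under the epidermis. Frem1 had 5.197, 6.80, 5.13 and 4.99 in null samples, against 6.36, 6.28, 6.62 and 6.27 in wild-type samples. Thus 3 null samples lay more than 1 unit below every wild-type sample, and null 2, with the high fibroblast genes, lay above them all. With all samples the difference was −0.85 (SE 0.36, limma adjusted p = 1.00). Without Foxi3 null 2 it was −1.28 (SE 0.11, limma adjusted p = 0.0222), and Frem1 was then 1 of 4 genes called over all genes. Under the other 19 alternatives its limma adjusted p was 0.544 or more. The part of dermal RNA in the value of null 2 was not tested. The other genes of the complex, given here after their values were seen, did not share this pattern: Fras1 was at 0.19 (SE 0.24) and Frem2 at 0.07 (SE 0.25), and both were highest in wild type 4, at 9.70 and 9.06.

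**Figure D4:**
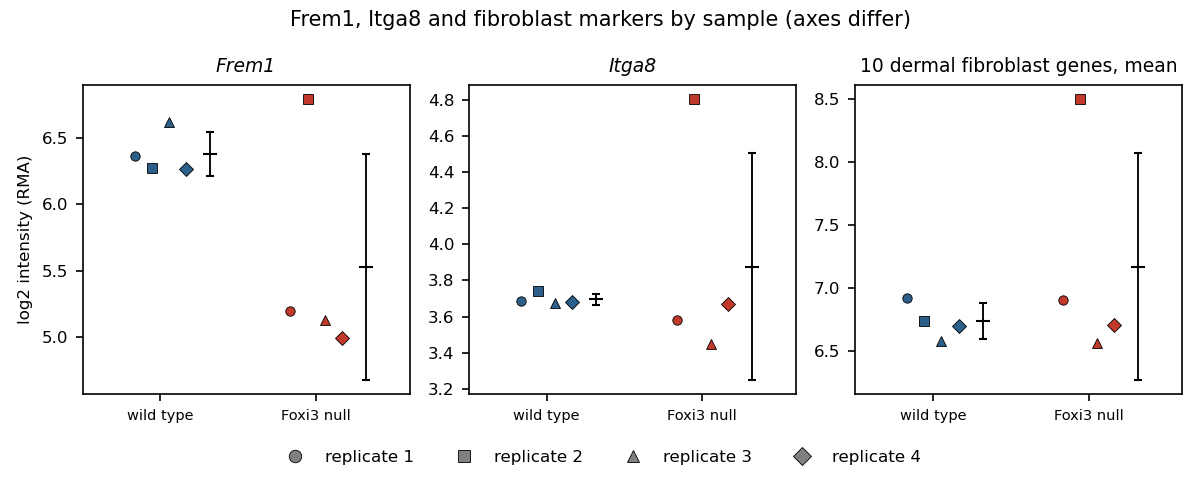
Log2 intensity of Frem1 and Itga8 and the mean of 10 dermal fibroblast genes in each sample, by group, with the group mean and a bar of 1 SD. Foxi3 null 2 (square) is the highest sample in all 3 panels, but Itga8 was singled out after its values were seen. The other 3 null samples lie between 4.99 and 5.197 for Frem1, below the wild-type samples at 6.27 to 6.62.

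The next ligands were tenascin C (Tnc), a ligand of α9β1, at −0.37 (SE 0.16), and the laminin β1 gene Lamb1 at 0.30 (SE 0.15), or 0.18 without Foxi3 null 3, neither called (limma adjusted p = 1.00). Tnc had 6.70, 6.73, 6.35 and 6.86 in null samples, against 6.91, 6.91, 6.81 and 7.47 in wild-type samples. The groups overlapped between null 4 and wild type 3. Wild type 4 was the highest, and without it the difference was −0.22.

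Among 19 genes of TGF-β activation and response, 0 were called by limma over all genes (0.0115% of all genes were). Of the 19, 2 had an unadjusted p under 0.05 (3.72% of all genes did). Above 0 lay 8 (46.0% of all genes did), with a median of −0.015. The median was 0.0025 without wild type 4 and −0.042 without Foxi3 null 4. Tgfb3, a TGF-β ligand that is secreted in a latent form, had 6.23, 6.13, 6.07 and 5.92 in null samples, against 6.41, 6.29, 6.15 and 6.44 in wild-type samples, a difference of −0.24 (SE 0.09, limma adjusted p = 1.00). The groups overlapped through wild type 3. Ltbp3 encodes a protein that binds latent TGF-β in the matrix. Its level ran from 7.24 to 7.29 in null and from 7.07 to 7.16 in wild-type samples. The groups did not overlap, as in 0.871% of all genes on the higher side. The difference was 0.14 (SE 0.06), and Ltbp3 was not called. Pmepa1, a TGF-β response gene, was at −0.18 (SE 0.09), and at −0.11 without wild type 4. The ligand, carrier and response genes thus did not lie on 1 side of 0.

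Among 23 genes of adhesion adaptors and hemidesmosome linkers, 0 were called by limma over all genes (0.0115% of all genes were). None had an unadjusted p under 0.05 (3.72% of all genes did). Of the 23, 20 lay above 0 (46.0% of all genes did), with a median of 0.09 (0.050 without Foxi3 null 3). These genes share samples, so they are not independent of one another. Talin 1 (Tln1), which links β tails to actin, was at 0.31 (SE 0.14), with null values of 8.57, 8.52, 8.76 and 8.10 against 8.06, 8.19, 8.37 and 8.09. Kindlin-2 (Fermt2), which activates integrins beside talin, was at 0.19 (SE 0.09). Kank1, which binds talin, was at −0.29 (SE 0.14), or −0.19 without wild type 4, and the groups overlapped for all 3 genes. The mean of the 23 genes was 7.76, 7.78, 7.91 and 7.69 in null samples, against 7.66, 7.68, 7.80 and 7.66 in wild-type samples, and the groups overlapped (exact permutation test, two-sided, p = 0.229). Number 3 was the highest of each group.

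**Figure D5:**
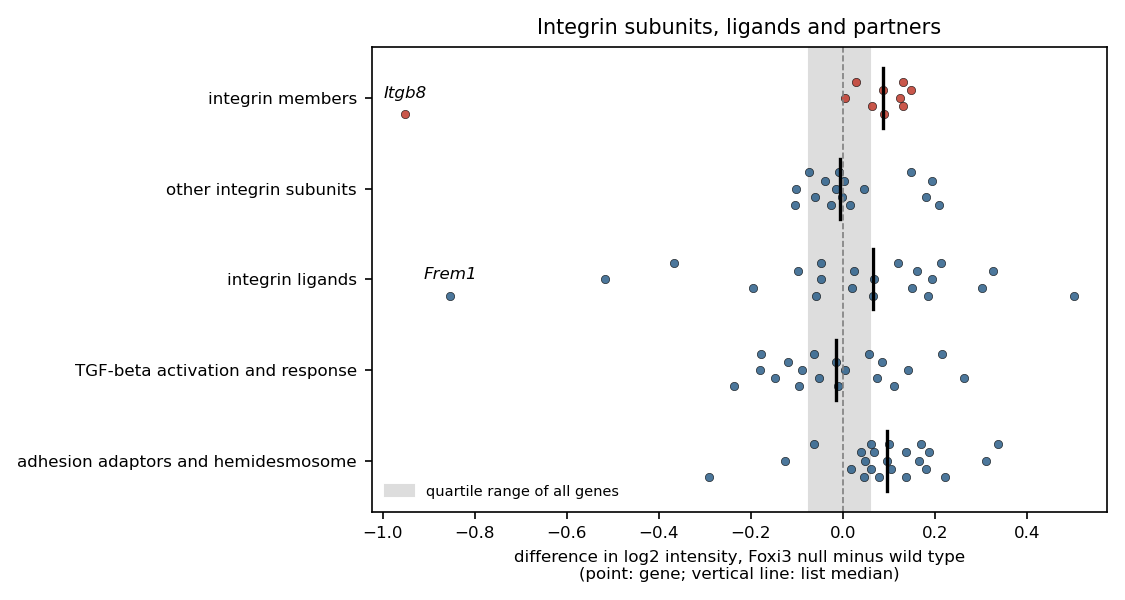
Difference in mean log2 intensity, Foxi3 null minus wild type, for each gene (point) of the integrin members, the other subunits and 3 lists of ligands, TGF-β genes and adaptors, with the list median (vertical line) and the range between the quartiles of all 26165 genes (grey, −0.074 to 0.058). Itgb8 at −0.95 and Frem1 at −0.85 are the lowest points, and 20 of 23 adaptor and linker genes lie above 0, against 46.0% of all genes.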

How the data were processed

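The authors obtained the deposited log2 intensities per Ensembl gene with RMA, per the submitters' processing notes, and the file headers name the array. No source used here gives its version, probe annotation, genome build or filters. Sample medians lay between 5.15 and 5.29. Precision is limited by the number of arrays, which carry no read depth. A further 8 array columns could not be matched to samples by name and were not used. The log2 group means that the authors deposited matched means taken here to within 7.5e-09, and no samples were identical.

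Groups and replicate numbers came from sample titles. All 26165 genes were fitted with lmFit and eBayes (limma 3.58.1, R 4.3.3), two-sided, with Benjamini-Hochberg adjustment, a threshold of 0.05 and no covariate. The fit was tested on simulated data. List means were compared by an exact permutation test over 70 arrangements, whose smallest p is 0.0286.

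Members and lists were chosen with earlier results of these data known. Named genes were the members, up to 3 genes of lowest unadjusted p per list, and 5 genes most like Itgb8 by each of 2 correlations. Alternatives covered normalisation, dim genes, rows per symbol, array weights, moderation, sex, replicate block, threshold, and leaving out samples. Nrros was found under its older symbol Lrrc33.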

Additional observations from a re-analysis of the deposited data

Results flagged for a closer look

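In 9 of 98 values, each of 1 gene or list mean in 1 group, a single sample stood far from the other 3, and the share of the group's range taken by its gap to the nearest sample is given for each. Chance gives about 1 in 20. Of the members, Itgav stood high in Foxi3 null 3 (0.89, at 8.61 against 8.42 to 8.44) and Itgb6 in Foxi3 null 1 (0.844, at 6.18 against 6.001 to 6.03). Frem1 stood high in Foxi3 null 2 (0.886). Tnc (0.845) and the dissociation stress mean (0.842) stood high in wild type 4. In wild type 3, the adaptor and linker mean stood high (0.859, at 7.80 against 7.66 to 7.68), and Prss35 (0.873) and the mean of Schwann cell and nerve genes (0.861) stood low. The Y-linked mean stood high in Foxi3 null 3 (0.981).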

How the results depend on the processing

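The difference of Itgb8, on which the gene was chosen, was −1.10 to −0.73 under the 19 alternatives that gave it a value. The value of −0.73 was within embryos with Y-linked signal. The Itgb8 groups did not overlap, so leaving out samples could not turn its sign. Itgb8 has no value among genes at or above the table median. No alternative called any of the 9 other members. Their differences kept their sign apart from Itgb4, −0.027 to 0.118 when 1 sample was left out, and Itga6, −0.038 to 0.045 when 1 sample was left out, −0.0025 with array weights, −0.00024 with the sex covariate, −0.038 without both samples numbered 4 and −0.080 within embryos without Y-linked signal. Over all genes limma called 3 (973 at unadjusted p under 0.05), against 0 to 4 when 1 sample was left out. It called 0 without variance moderation (868 at unadjusted p under 0.05), with the replicate number as a block (2339) and without both samples numbered 4 (1688). Of the listed ligands, TGF-β genes, adaptors and other subunits, 0 to 1 was called when 1 sample was left out, the 1 being Frem1. Deviations of same-numbered samples correlated at 0.13, −0.043, 0.49 and 0.36 over genes. For numbers 1, 3 and 4 this exceeded the null sample's correlation with each other number, a hint from the data, and for number 2 it did not, so the numbers were not taken as pairs. With the block, the SE of Itga3 was 0.054 and that of Itga2 0.060, with limma adjusted p of 0.749 and 0.627. The cause of these changes was not tested. Detection calls were not used, so that dim genes cannot be told from background.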

Other observations

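After each group's mean was subtracted, the 5 genes of 11110 that varied most like Itgb8 over the 8 samples were Dyrk2 (r = 0.99), Lcor (0.98), Sepsecs (0.97), Ptpn3 (0.96) and Ralgapa2 (0.96). They are the top of many correlations over 8 samples, are given as a description, and lay between −0.14 (Dyrk2) and −0.0028 (Ralgapa2) in the difference between null and wild type.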
